A study of Homo sapiens with 12 samples.

Results

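The 4 ID genes and 6 genes that act on bone morphogenetic protein (BMP) signals were followed over 12 Affymetrix expression arrays. They were taken by gene symbol as ID1, ID2, ID3, ID4, SMAD6, SMAD7, SOSTDC1, BAMBI, BMP2 and BMP4, which makes 10 of the 19775 genes that a probe set named alone. A probe set is the group of short probes that reads 1 transcript, and 19 of the 54613 probe sets tested belonged to these genes. The arrays fell into 4 groups of 3. MMS1 cells with a lentiviral miR-16 sponge stood against MMS1 cells with a control mock sponge, and RPMI8226 cells with the miR-16 sponge against RPMI8226 cells with the control sponge. The labels give both lines as multiple myeloma, write RPMI8226 also as RPMI or RPMI826, and call the sponge groups miR16 KO, miR16 knock down or miR16 siRNA. The lentivirus of all 4 groups carried GFP, by which the control groups are named in the source labels, and transduced cells were sorted. A sponge is a transcript with many binding sites that holds a microRNA away from its targets. A sponge lowers the free microRNA and deletes nothing, and the sorted cells were expanded as a population. The genes were chosen with their values over these 4 groups already known, so those values are described here and no test is drawn from them.

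BMPs are secreted ligands of the TGF-beta family. They join type I and type II receptors at the cell surface, which phosphorylate SMAD1, SMAD5 and SMAD9, and these enter the nucleus with SMAD4. The ID genes are among the best known targets of that signal in many cell types. ID proteins carry a helix-loop-helix domain without a DNA-binding part, so they pair with E proteins such as TCF3 and keep them off DNA. SMAD6 and SMAD7 block the pathway from inside the cell, and are themselves induced by it. BAMBI is a decoy receptor without a kinase domain, and SOSTDC1 is a secreted protein that binds BMPs and also acts on WNT signals. In blood cells, E proteins work with TAL1, LYL1 and LMO2, and in B lineage cells they are needed for the lineage itself.

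The sponge was directed at miR-16. Its mature sequence is printed with 2 relatives to show the seed, bases 2 to 8, which they share and which is in capitals. The sequences come from RefSeq's GRCh38.p14 table, where all 3 names were found.
hsa-miR-16-5p: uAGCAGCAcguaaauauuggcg
hsa-miR-15a-5p: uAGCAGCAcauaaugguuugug
hsa-miR-15b-5p: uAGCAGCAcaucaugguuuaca
The genes for miR-16 lie on chromosome 13 at chr13:50049027-50049048 on the minus strand (GRCh38.p14, mature sequence) and on chromosome 3 at chr3:160404754-160404775 on the plus strand. Neither microRNA nor sponge was measured on these arrays, and sites for the seed in the transcripts of the 10 genes were not analysed here.

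The deposited values are log2 signals with a lower bound of 4, and 2.18% of them lay within 0.05 of that bound. Precision is limited by how few arrays there were, and for a typical probe set the standard error of a difference between groups of 3 was 0.14 (median, log2 scale). One array, MMS1 miR-16 sponge replicate 1, lay apart in 18S ribosomal RNA control probes, with a mean of 7.84 against 9.56 to 11.14 on the other 11 arrays. Its ACTB control probes differed by 0.49 between the 3' and 5' ends, against 0.08 to 0.34 on the others. Values for MMS1 without that array are given with the results. Markers of the labelled cell type were mostly low. Of 9 plasma cell markers, 2 lay above the upper quartile of genes in each group, SDC1 and XBP1 with averages of 8.90 and 8.51. JCHAIN, TNFRSF17 and CD38 averaged 4.20, 4.46 and 4.91. Of 6 measured erythroid markers, 5 or 6 lay above that quartile in each group, with HBE1 averaging 14.16.

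In MMS1, the miR-16 sponge arrays had more SOSTDC1, ID3 and SMAD7 and less ID2, BAMBI and ID1 than the control arrays. In RPMI8226, SOSTDC1, ID1 and BAMBI were lower and ID3 was higher with the sponge, each by less than 1 on the log2 scale. Across the control arrays, RPMI8226 had far less ID2 than MMS1 and more ID3, SOSTDC1 and ID1. In bulk RNA, fewer cells with a transcript and less of it per cell cannot be told apart. In MMS1, 3 of the 10 genes passed limma's test as higher, where 4.34% of all genes did, and 3 passed as lower, where 8.08% did. A pass, or call, means an adjusted p under 0.05. In RPMI8226, 0 of the 10 passed in either direction by limma, where 0.0152% of all genes passed as higher and 0.202% as lower (0.217% in all). There 4 of the 10 had an unadjusted p under 0.05, against 14.3% of all genes. The genes were picked on these comparisons, so nothing is read from the counts.

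**Figure D1:**
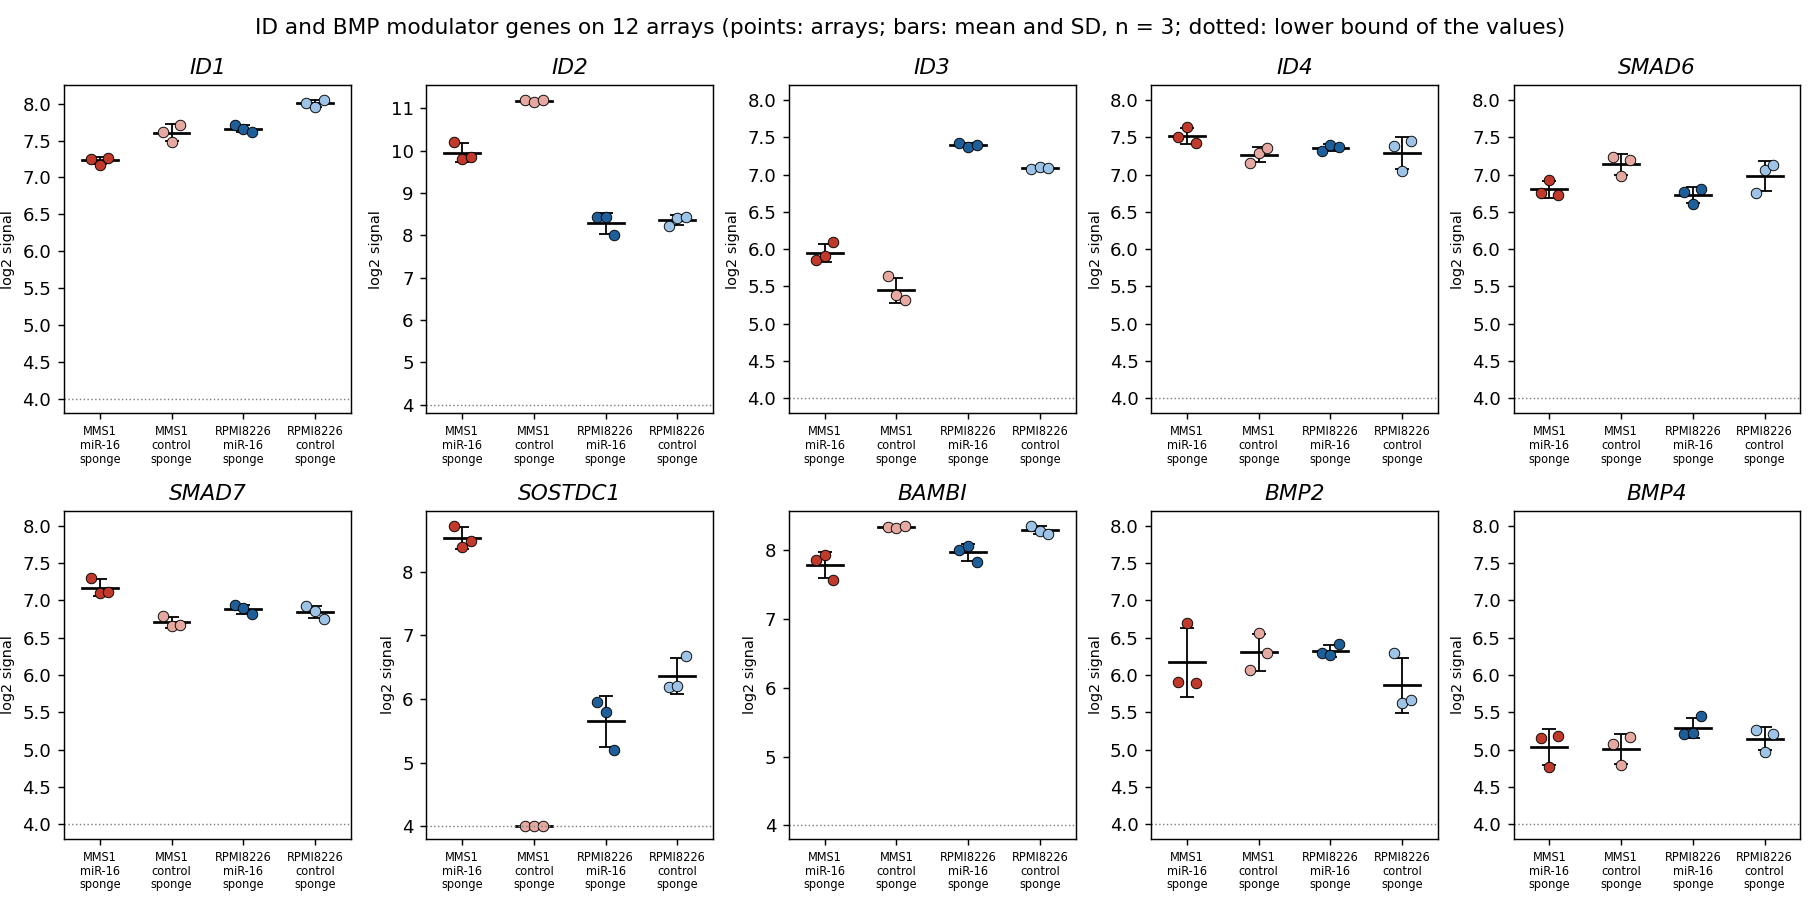
Log2 signal (y axis) of the 10 genes on each array, by group (x axis), for the brightest probe set of each gene. Points are arrays, black bars the mean and SD of 3 arrays, and the dotted line the lower bound of 4. SOSTDC1 lies at the bound on the 3 MMS1 control arrays and at 8.39 to 8.72 on the 3 MMS1 miR-16 sponge arrays.

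ID1, an inhibitor of E proteins and a direct SMAD target, had 1 probe set. In MMS1 its log2 signals were 7.25, 7.17 and 7.27 with the miR-16 sponge, against 7.62, 7.48 and 7.71 with the control sponge. In RPMI8226 they were 7.71, 7.66 and 7.62 with the miR-16 sponge, against 8.01, 7.96 and 8.05 with the control sponge. The sponge arrays lay below all control arrays in both lines. The log2 difference was -0.37 (standard error 0.095) in MMS1 and -0.35 (0.095) in RPMI8226. Their difference of 0.02 had a 95% interval of -0.27 to 0.31, so the values leave room for unequal effects within that span. The control arrays stood highest in RPMI8226, and the RPMI8226 sponge arrays overlapped the MMS1 control arrays.

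ID2, which in lymphoid cells holds back E protein activity, varied more among the groups than ID1, ID3 or ID4. Its brightest probe set gave 10.20, 9.79 and 9.85 with the miR-16 sponge in MMS1, against 11.18, 11.15 and 11.18 with the control sponge. In RPMI8226 it gave 8.42, 8.44 and 8.0 with the miR-16 sponge, against 8.23, 8.41 and 8.44 with the control sponge. In MMS1 all sponge arrays lay below all control arrays, while in RPMI8226 the groups overlapped. The log2 difference was -1.23 (standard error 0.14) in MMS1, or 2.34-fold lower, and -0.07 (0.14) in RPMI8226. The MMS1 difference was -1.35 without MMS1 miR-16 sponge replicate 1, the highest ID2 array of its group. Between the control arrays, ID2 was lower in RPMI8226 than in MMS1 by 7.02-fold (log2 difference -2.81, standard error 0.14). The other ID2 probe set gave -1.17 in MMS1 and -0.21 in RPMI8226, where its groups did not overlap. The name of that probe set ends in x_at, which marks probes that can also bind other transcripts. A further probe set, which names ID2 and its pseudogene ID2B and is not counted with the 19, gave -0.89 and -0.10.

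ID3, which restrains E proteins in lymphocytes, ran against ID1 and ID2. In MMS1 its 1 probe set gave 5.85, 5.91 and 6.09 with the miR-16 sponge, against 5.64, 5.39 and 5.32 with the control sponge. RPMI8226 arrays had 7.42, 7.37 and 7.40 with the miR-16 sponge, against 7.07, 7.10 and 7.09 with the control sponge. None of the 4 groups overlapped another, and the order from high to low was RPMI8226 sponge, RPMI8226 control, MMS1 sponge and MMS1 control. The log2 difference was 0.50 (standard error 0.11) in MMS1 and 0.31 (0.11) in RPMI8226. The effects differed by -0.19 between the lines, with a 95% interval of -0.52 to 0.14. ID3 was 3.12-fold higher in the RPMI8226 controls than in the MMS1 controls.

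ID4, the member of the family best known from neural precursors, had 5 probe sets that disagreed. The brightest gave 7.50, 7.63 and 7.42 with the miR-16 sponge in MMS1, against 7.16, 7.29 and 7.35 with the control sponge, a log2 difference of 0.25 (standard error 0.12). The RPMI8226 signals were 7.31, 7.40 and 7.37 with the miR-16 sponge, against 7.38, 7.05 and 7.45 with the control sponge, where the groups overlapped. A different ID4 probe set was 6.35, 6.25 and 6.23 with the miR-16 sponge in MMS1, against 6.99, 7.18 and 7.02 with the control sponge, a log2 difference of -0.78 (0.12). Its name ends in x_at, as does that of the second ID2 probe set, so its probes can also bind other transcripts. Over the 12 arrays it followed the brightest ID2 probe set with a Pearson r of 0.99, and of 0.70 after group means were removed. These correlations describe 12 arrays in 4 groups that share their group structure. The other 3 ID4 probe sets gave -0.16 to 0.20 in MMS1. The dimmest of them had group means of 4.26 to 4.67, near the bound of 4. Whether the x_at probe set reads ID2 transcripts was not tested. The mean over the 5 probe sets, the x_at one included, differed by -0.09 in MMS1 and -0.07 in RPMI8226. ID4 thus has no settled direction here.

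**Figure D2:**
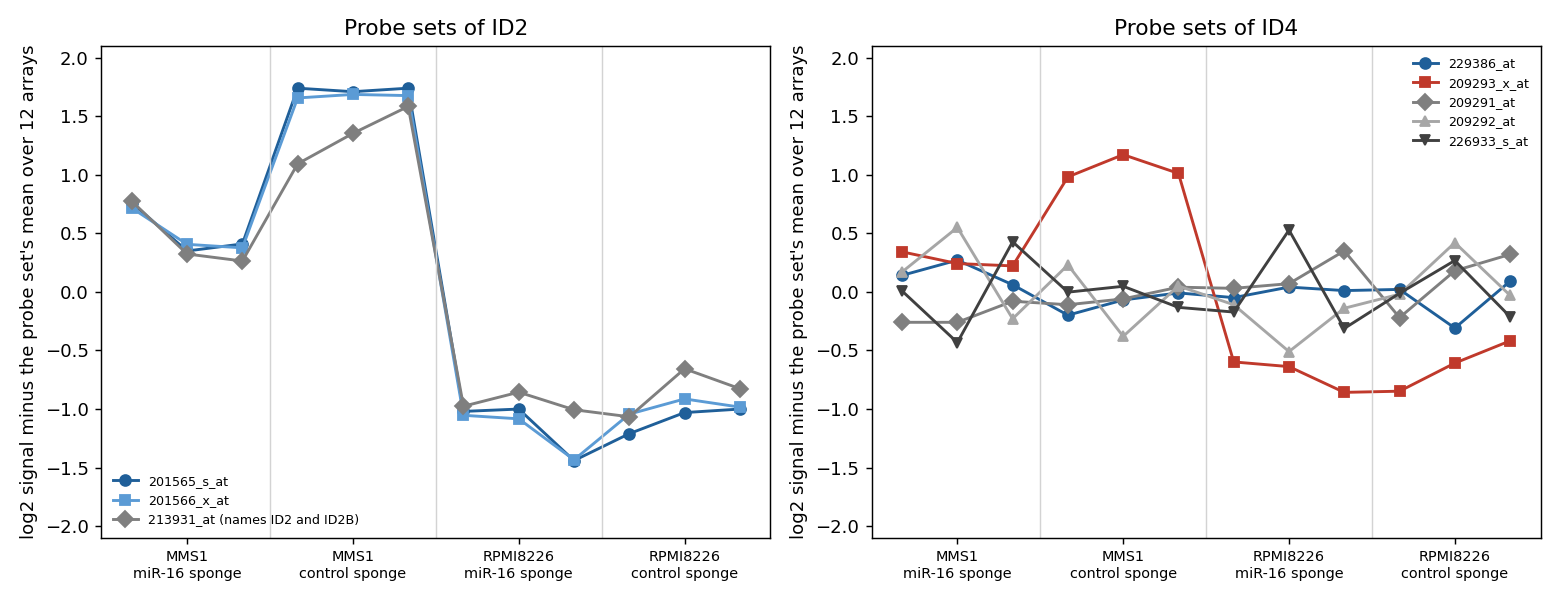
Log2 signal minus the probe set's own mean over 12 arrays (y axis) on each array (x axis, 3 arrays per group), for the ID2 probe sets on the left and the 5 ID4 probe sets on the right. The red line, the x_at probe set of ID4, takes the shape of the ID2 lines, with a Pearson r of 0.99 to the brightest of them, and the other 4 ID4 lines lie at most 0.55 from their means.

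SMAD6, which competes with the signal-carrying SMADs of BMP receptors, gave small differences. Its brightest probe set gave 6.75, 6.93 and 6.72 with the miR-16 sponge in MMS1, against 7.24, 6.98 and 7.19 with the control sponge. In RPMI8226 it gave 6.77, 6.60 and 6.80 with the miR-16 sponge, against 6.75, 7.06 and 7.13 with the control sponge. The groups were apart in MMS1, by -0.34 (standard error 0.12), and overlapped in RPMI8226, at -0.26 (0.12). The other 3 SMAD6 probe sets lay between -0.28 and 0.20 in MMS1 and between -0.05 and 0.18 in RPMI8226, so the lower level was not shared by all its probe sets. The mean over the 4 probe sets differed by -0.14 in MMS1 and -0.02 in RPMI8226.

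SMAD7, an inhibitor of TGF-beta and BMP receptors, was higher with the sponge in MMS1. Its probe set gave 7.30, 7.10 and 7.11 with the miR-16 sponge, against 6.79, 6.66 and 6.67 with the control sponge, a log2 difference of 0.46 (standard error 0.1). The difference was 0.40 without MMS1 miR-16 sponge replicate 1, the highest SMAD7 array. RPMI8226 arrays had 6.93, 6.90 and 6.81 with the miR-16 sponge, against 6.92, 6.86 and 6.75 with the control sponge. The RPMI8226 groups overlapped, and their difference was 0.04 with a 95% interval of -0.18 to 0.25.

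BAMBI, the decoy receptor, was lower with the sponge in both lines. In MMS1 it gave 7.86, 7.93 and 7.57 with the miR-16 sponge, against 8.34, 8.32 and 8.36 with the control sponge. The RPMI8226 signals were 8.01, 8.07 and 7.83 with the miR-16 sponge, against 8.36, 8.28 and 8.24 with the control sponge. No sponge array reached a control array of its line. The log2 difference was -0.56 (standard error 0.11) in MMS1 and -0.32 (0.11) in RPMI8226. The control arrays of the lines overlapped, at -0.05 for RPMI8226 against MMS1.

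SOSTDC1, the secreted BMP antagonist, showed the widest range of the 10 genes and opposite directions in the lines. In MMS1 its probe set gave 8.72, 8.39 and 8.48 with the miR-16 sponge, against 4.0, the lower bound, on each of the 3 control arrays. The log2 difference was thus at least 4.53 (standard error 0.18), and at least 4.43 without MMS1 miR-16 sponge replicate 1. In RPMI8226 it gave 5.95, 5.79 and 5.20 with the miR-16 sponge, against 6.19, 6.21 and 6.68 with the control sponge. All RPMI8226 sponge arrays lay below all RPMI8226 controls, by -0.71 (0.18). No neighbouring groups overlapped in the order MMS1 sponge, RPMI8226 control, RPMI8226 sponge and MMS1 control.

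The ligand genes BMP2 and BMP4 did not separate the groups. The brighter BMP2 probe set gave 5.91, 6.70 and 5.89 with the miR-16 sponge in MMS1, against 6.06, 6.56 and 6.29 with the control sponge. RPMI8226 arrays had 6.29, 6.26 and 6.41 with the miR-16 sponge, against 6.29, 5.63 and 5.66 with the control sponge, where the lowest sponge array lay just under the highest control. Its log2 differences of -0.14 and 0.46 each had a standard error of 0.22, and the other BMP2 probe set gave -0.43 and 0.04. BMP4 stayed between 4.76 and 5.45 on all 12 arrays, with differences of 0.02 in MMS1 and 0.15 in RPMI8226 (standard error 0.14 each). Groups next to each other in order overlapped for both ligands.

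**Figure D3:**
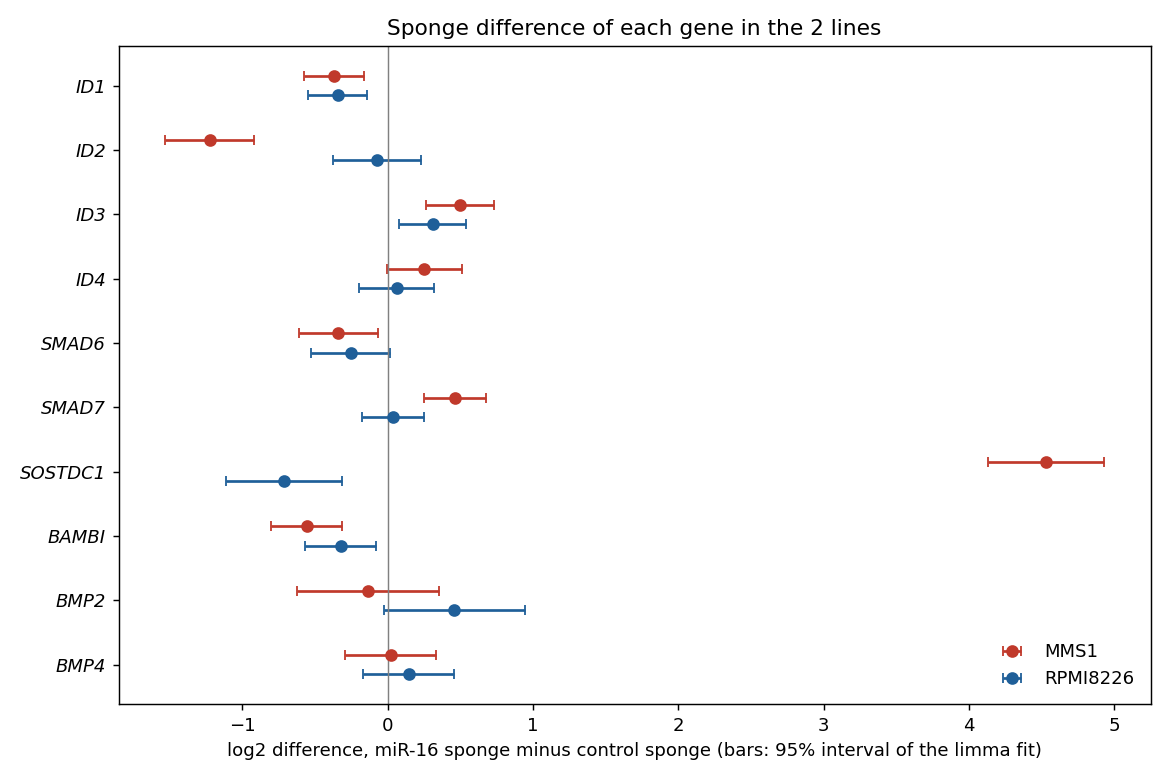
Log2 difference of each gene, miR-16 sponge minus control sponge (x axis), in MMS1 (red) and RPMI8226 (blue), with the 95% interval of the limma fit as bars. The MMS1 point of SOSTDC1, at 4.53, is a lower limit because its controls lie at the bound of the values. ID1, ID3 and BAMBI lie on the same side of 0 in both lines. The genes were chosen with these values known, so the intervals are a description, and 0 of the 10 passed limma's test in RPMI8226.

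The sponge and control arrays of MMS1 did not overlap for 8 of the 10 genes, where 31.1% of all genes did not overlap (12.3% higher and 18.8% lower). In RPMI8226 they did not overlap for 4 genes, ID1, ID3, SOSTDC1 and BAMBI, against 24.9% of all genes (7.79% higher and 17.1% lower). ID1, ID3 and BAMBI were the genes apart in the same direction in both lines. The median log2 difference of the 10 genes was -0.06 in MMS1 and -0.02 in RPMI8226, against -0.04 and -0.02 for all genes. The difference of the sponge effects passed for ID2 as higher in RPMI8226, where 2.63% of all genes did, and for SOSTDC1 as lower, where 3.27% did (5.9% in all). Between the control arrays, 3 of the 10 passed as higher in RPMI8226 and 1 as lower, against 6.52% and 3.8% of all genes (10.3% in all). Without MMS1 miR-16 sponge replicate 1 the same 6 genes passed in MMS1. There the log2 differences were -0.38 for ID1, 0.55 for ID3 and -0.59 for BAMBI, beside those given above for ID2, SMAD7 and SOSTDC1. ID4 gave 0.26, SMAD6 -0.32, BMP2 -0.01 and BMP4 -0.04 without it. Without MMS1 control sponge replicate 1 or 3, or MMS1 miR-16 sponge replicate 2, ID1 did not pass, and with each line fitted alone ID1 and ID3 did not.

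Markers of cell types other than the labelled one differed between the same groups to unequal extents. Erythroid markers are kept with them here, though most lay above the upper quartile of genes in every group, as given above. The log2 of the summed signal of 6 erythroid markers was 14.52 to 14.62 on MMS1 miR-16 sponge arrays, against 15.32 to 15.38 on MMS1 controls. In RPMI8226 it was 14.59 to 14.61 on sponge arrays, against 14.90 to 14.93 on controls. HBE1 and HBZ were the brightest of the 6, so the sum mostly follows them. In MMS1 HBZ averaged 12.14 with the miR-16 sponge against 14.07 with the control sponge. KLF1 and ALAS2 were also lower in MMS1 (7.98 against 9.83 and 7.39 against 9.90). HBE1, GATA1 and EPOR were lower in MMS1 by less (14.18 against 14.39, 9.34 against 9.75 and 8.02 against 8.10). In RPMI8226 HBE1 averaged 13.80 with the miR-16 sponge against 14.28 with the control sponge, and HBZ 13.00 against 13.01. GATA1 and KLF1 were lower there (9.40 against 9.73 and 9.56 against 9.71). ALAS2 and EPOR were higher there (9.59 against 9.30 and 8.19 against 8.14). The T cell marker CD3D averaged 12.41 in MMS1 with the miR-16 sponge, against 6.77 with the control sponge. The other 5 of 6 T cell markers lay below the median gene in every group, so the list's summed signal, 12.36 to 12.64 against 8.38 to 8.55, came from CD3D. The summed signal of 5 epithelial markers was 13.30 to 13.38 on MMS1 miR-16 sponge arrays, against 11.88 to 12.02 on MMS1 controls, with KRT8 averaging 11.90 against 9.30 and KRT18 12.45 against 11.35. In RPMI8226 it was 13.07 to 13.19 on sponge arrays, against 13.25 to 13.31 on controls. Stromal markers, whose cells make many BMP antagonists, summed to 9.76 to 9.88 on MMS1 sponge arrays, against 9.64 to 9.89 on MMS1 controls. On the same arrays endothelial markers summed to 8.67 to 8.74, against 8.66 to 8.74. Megakaryocyte markers summed to 8.36 to 8.56, against 8.39 to 8.53. The stromal sum mostly follows COL1A1 (8.89 against 8.83 in MMS1) and the endothelial sum PECAM1 (7.83 against 7.93). Of the dimmer endothelial markers in MMS1, KDR, VWF and CDH5 were higher (5.34 against 4.59, 6.55 against 6.45 and 4.39 against 4.29). TEK was lower (5.01 against 5.32). The identity of the cells and the part of other cell types in the values of the 10 genes were not tested.

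Promoters were read for the genes that were apart in the same direction in both lines, and for SMAD6, whose window holds a SMAD palindrome. Windows run from 250 bases before to 50 after the start of the gene and come from RefSeq's GRCh38.p14 table, which matched 8 of the 10 genes with 12 windows. Motifs were searched on both strands. GGCGCC is a GC-rich element bound by BMP SMADs, GTCTAGAC is the SMAD palindrome and TATAAA is the TATA box. Matches are in capitals.
BAMBI (chr10:28677271-28677570, plus strand): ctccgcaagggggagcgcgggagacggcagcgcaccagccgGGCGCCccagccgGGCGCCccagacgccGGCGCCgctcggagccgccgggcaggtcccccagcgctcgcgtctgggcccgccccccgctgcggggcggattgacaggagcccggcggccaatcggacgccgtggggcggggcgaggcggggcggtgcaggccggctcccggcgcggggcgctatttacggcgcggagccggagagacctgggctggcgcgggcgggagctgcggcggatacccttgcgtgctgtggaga
ID1 (chr20:31605039-31605338, plus strand): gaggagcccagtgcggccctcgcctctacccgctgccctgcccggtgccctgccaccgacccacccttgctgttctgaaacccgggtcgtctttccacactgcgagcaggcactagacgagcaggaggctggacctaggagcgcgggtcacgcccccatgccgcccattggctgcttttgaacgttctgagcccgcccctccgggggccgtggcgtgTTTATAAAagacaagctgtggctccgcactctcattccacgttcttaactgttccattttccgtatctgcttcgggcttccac
ID3 (chr1:23559452-23559751, minus strand): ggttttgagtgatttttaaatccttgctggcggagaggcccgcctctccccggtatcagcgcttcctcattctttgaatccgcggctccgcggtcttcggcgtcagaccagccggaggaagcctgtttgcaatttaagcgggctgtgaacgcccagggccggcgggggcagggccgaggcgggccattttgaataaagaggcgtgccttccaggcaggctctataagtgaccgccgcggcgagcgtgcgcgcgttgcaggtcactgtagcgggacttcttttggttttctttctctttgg
SMAD6 (chr15:66701986-66702285, plus strand): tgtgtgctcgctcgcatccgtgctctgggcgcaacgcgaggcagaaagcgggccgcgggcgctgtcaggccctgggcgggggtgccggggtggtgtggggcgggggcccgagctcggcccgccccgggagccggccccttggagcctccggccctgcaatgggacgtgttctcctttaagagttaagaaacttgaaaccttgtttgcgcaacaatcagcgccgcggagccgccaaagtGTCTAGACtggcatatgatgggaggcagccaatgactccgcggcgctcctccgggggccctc
The BAMBI window held GGCGCC at 3 places, which start 209, 196 and 181 bases before the start site. The ID1 window held TATAAA starting 31 bases before the start site, overlapping a match on the other strand. The ID3 window held none of the 3 motifs, and the SMAD6 window held GTCTAGAC 12 bases before the start site. Of the 12 windows, 2 held GGCGCC (BAMBI and BMP4), 1 held GTCTAGAC (SMAD6) and 3 held TATAAA (ID1, ID4 and SMAD7). Over all 35116 windows of the table, 19.2% held GGCGCC, 0.202% held GTCTAGAC and 11.5% held TATAAA. A match is a run of letters and not a measured binding site. BAMBI and ID1 shared none of the 3 motifs in these windows. Sequence further from the start site was not searched, so nothing is read from this about their regulation.

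Other genes of the network were taken from 8 lists with 100 measured genes. In MMS1, 8 of them rose and 7 fell with the miR-16 sponge, 15% of the lists against 12.4% of all genes. In RPMI8226, 0 passed in either direction by limma, while 16 of 100 had an unadjusted p under 0.05, against 14.3% of all genes. Without MMS1 miR-16 sponge replicate 1, all 15 kept their direction in MMS1 and 13 their call, PPM1A and TGIF1 being the exceptions. All p-values below are limma's, adjusted over all probe sets. The lists were written with earlier results of these data known, so these counts and p-values are a description.

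Among the receptors and co-receptors, 2 of 17 rose and 2 fell in MMS1. RGMB, a co-receptor for BMPs, rose to 7.93 ± 0.21 with the miR-16 sponge, against 5.59 ± 0.09 with the control sponge (SD, n = 3 each). That log2 change was 2.34 (adjusted p = 6.95e-08). In RPMI8226 RGMB gave 0.38 (adjusted p = 0.202). Only this 1 of 4 RGMB probe sets was called, and the lowest gave -0.07. TGFBR3, the co-receptor betaglycan, rose to 8.69 ± 0.14 against 7.75 ± 0.11 (log2 change 0.94, adjusted p = 0.000127), with both of its probe sets called. The type II receptor gene TGFBR2 fell by 0.54 (adjusted p = 0.0127) and the activin type I receptor gene ACVR1B fell by 0.44 (adjusted p = 0.00725). Of the 2 TGFBR2 probe sets 1 was called, and the other gave -0.10. TGFBR2 lost its call without MMS1 control sponge replicate 1 or 3 (highest adjusted p = 0.0593). ACVR1B lost it with the mean over its 6 probe sets (log2 difference -0.15, adjusted p = 0.227).

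Of 6 signal-carrying SMADs, 0 rose and 1 fell in MMS1. SMAD1, which carries the BMP signal, fell to 5.62 ± 0.36 with the miR-16 sponge, against 6.63 ± 0.17 with the control sponge (SD, n = 3 each). That log2 change was -1.01 (adjusted p = 0.00125). Of its 3 probe sets 2 fell and the remaining 1 gave 0.04. SMAD5, which works beside SMAD1, gave 0.41 (adjusted p = 0.0715), and SMAD2, of the activin and TGF-beta branch, gave 0.18 (adjusted p = 0.478). In RPMI8226 these genes gave -0.15, 0.02 and -0.37, with adjusted p of 0.734, 0.962 and 0.24.

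Of 15 extracellular antagonists 2 rose and 0 fell in MMS1. CRIM1, a membrane protein that binds BMPs, rose to 5.69 ± 0.10 with the miR-16 sponge, against 4.47 ± 0.44 with the control sponge (log2 change 1.22, adjusted p = 0.0014). One control array lay at the bound, so the change may be larger. BMPER, a secreted BMP binder, gave 4.63 ± 0.06 against 4.11 ± 0.19, close to the bound throughout (log2 change 0.52, adjusted p = 0.0128). In RPMI8226 CRIM1 gave -0.19 and BMPER -0.25, with adjusted p of 0.734 and 0.381. BMPER lost its MMS1 call without MMS1 control sponge replicate 1 or 3 and with trended robust variances (highest adjusted p = 0.0623).

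Of 13 intracellular modulators 1 rose and 1 fell in MMS1. STUB1, a ubiquitin ligase that can act on SMADs, fell by 0.63 (adjusted p = 0.000545), as did all 3 of its probe sets. In RPMI8226 its log2 difference was -0.30 (adjusted p = 0.174). The phosphatase gene PPM1A rose by 0.42 in MMS1 (adjusted p = 0.0295), a call that was lost without any of 5 arrays: all 3 MMS1 controls and MMS1 miR-16 sponge replicates 1 and 3. It was also lost with each line fitted alone (adjusted p = 0.0629). Of the 6 PPM1A probe sets 2 were called, and the lowest gave 0.09.

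Among 7 partners of helix-loop-helix complexes, 1 rose and 2 fell in MMS1. LYL1, a blood cell factor that pairs with E proteins, fell to 9.11 ± 0.19 with the miR-16 sponge, against 10.05 ± 0.13 with the control sponge (log2 change -0.95, adjusted p = 0.000216). LDB1, a bridging factor of these complexes, fell by 0.50 (adjusted p = 0.00285). TAL1, the erythroid partner of E proteins, rose by 0.62 (adjusted p = 0.00296), with 1 of 4 probe sets called and an adjusted p of 0.0986 for their mean. In RPMI8226 the values were 0.06 for LYL1, -0.10 for LDB1 and 0.11 for TAL1, with adjusted p of 0.864, 0.666 and 0.719. Erythroid markers were lower on the same MMS1 sponge arrays, HBE1 and EPOR only slightly, as given above. A tie between those markers and LYL1, LDB1 or TAL1 was not tested.

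Of 16 other genes known to respond to BMP or TGF-beta, 2 rose and 1 fell in MMS1. HEY1, a repressor induced by BMP and Notch signals, rose to 8.13 ± 0.06 with the miR-16 sponge, against 7.35 ± 0.09 with the control sponge (log2 change 0.79, adjusted p = 0.000115). JUNB, an AP-1 subunit gene, fell to 8.49 ± 0.06 against 9.56 ± 0.15 (log2 change -1.07, adjusted p = 3.31e-05). TGIF1, a SMAD co-repressor gene, rose by 0.39 (adjusted p = 0.0439), a call lost without any of 10 arrays, with each line fitted alone and with the mean over its probe sets (highest adjusted p = 0.142). The 10 were all except MMS1 miR-16 sponge replicate 3 and RPMI8226 control sponge replicate 1. In RPMI8226 HEY1, JUNB and TGIF1 gave -0.16, -0.43 and -0.44, with adjusted p of 0.47, 0.121 and 0.122.

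None of 15 BMP and GDF ligand genes and none of 11 activin and TGF-beta ligand genes passed limma's test in MMS1 or RPMI8226. Their brightest members were GDF15, a stress-induced ligand, with 0.15 in MMS1 and -0.30 in RPMI8226 (adjusted p = 0.426 and 0.207), and TGFB1, with -0.05 and -0.22 (adjusted p = 0.837 and 0.381). BMP8B gave 0.10 and 0.24, and INHBC gave 0.16 and 0.08.

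**Figure D4:**
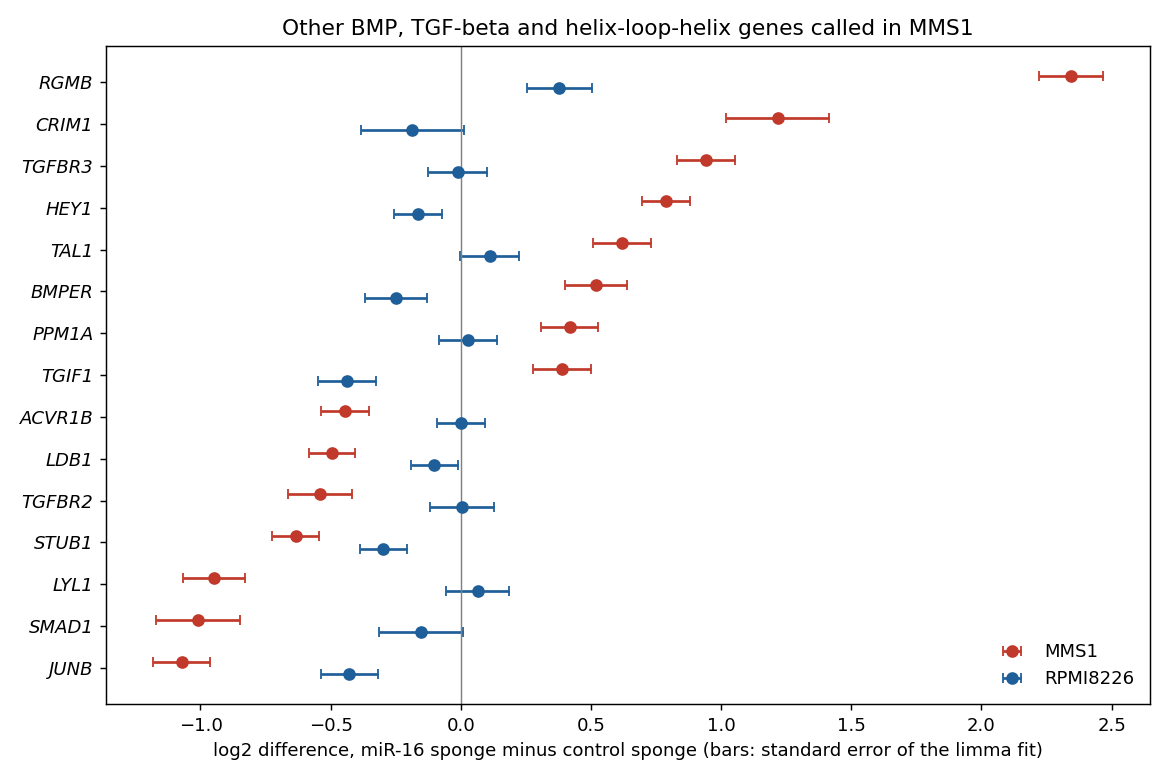
Log2 difference, miR-16 sponge minus control sponge (x axis), of the 15 genes outside the 10 that passed limma's test in MMS1 (red), with their values in RPMI8226 (blue). Bars are standard errors. RGMB has the highest MMS1 value at 2.34 and JUNB the lowest at -1.07, and none of the 15 passed in RPMI8226.

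For the 3 genes whose group means spanned at least 1 on the log2 scale, the most similar patterns were sought among the 799 genes with such a span. Likeness was Pearson's r over the 12 arrays, which share 4 groups, and is a description. ID2 was followed most closely by LAPTM5, a lysosomal membrane protein gene of blood cells (r = 0.99). LAPTM5 averaged 11.38 with the miR-16 sponge in MMS1, against 13.29 with the control sponge, and 8.59 against 8.50 in RPMI8226. The kinase gene RIPK2 came next (r = 0.99). ID3 was closest to the mitochondrial protein gene HAX1 (r = 0.98) and the noncoding gene BTG1-DT (r = 0.97). SOSTDC1 was closest to RPL22L1, a ribosomal protein paralogue (r = 0.99), and TFPI, an inhibitor of blood clotting (r = 0.98). RPL22L1 averaged 10.60 with the miR-16 sponge in MMS1, against 9.50 with the control sponge, and TFPI averaged 10.58 against 8.96.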

How the data were processed

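The labels give 12 Affymetrix arrays of MMS1 and RPMI8226 cells, 3 for each line and sponge. Per the labels' protocols, RNA was purified on RNeasy columns, amplified linearly and labelled with biotin. The authors deposited log2 signals, with 1 value for each probe set on each array. How they were summarised and scaled is not given in the sources used. No scaling was added, since the arrays' medians ran from 5.80 to 5.90.

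From 54675 probe sets 62 controls were left out. Symbols came from the platform table, updated by gene identifier. Of the probe sets that name only 1 gene, the one brightest on average stands for that gene. All 12 arrays entered a model of 4 group means in limma 3.58.1 (R 4.3.3), with two-sided moderated tests and Benjamini-Hochberg adjustment over 54613 probe sets. The labels speak of parallel flasks and do not tie arrays to flasks, so p-values measure only the spread between these arrays. The fit was tested on simulated data. Counts and figures used Python 3.11.15 and matplotlib 3.10.9.

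The genes and lists were chosen with earlier results of these data known. From each list up to 4 called genes per line with the smallest p are named, or the 2 brightest where fewer than 2 were called. Of the 107 listed network genes, 7 had no probe set of their own and were not analysed here. Alternatives were quantile normalization, brighter probe sets only, a replicate block, leaving out each array, trended robust variances, the mean over probe sets and each line alone.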

Additional observations from a re-analysis of the deposited data

Results flagged for a closer look

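For 2 of the 10 genes the difference between the lines' sponge effects was past limma's threshold, as for 5.9% of all genes. Each value is the RPMI8226 effect minus the MMS1 effect on the log2 scale. It was -5.24 for SOSTDC1, whose MMS1 controls lay at the lower bound, so the true gap may be wider, and 1.15 for ID2. Both genes were chosen with these values known, so the values are a description and no test is drawn from them.

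Of the 100 network genes, whose lists were written with earlier results of these data known, 11 passed limma's test of that difference. That was 11% against 5.9% of all genes, and nothing is read from the excess. Among these 11 genes, 9 were named because they were called in MMS1. The other 2, named after their values were seen, were INHBE with 0.68 (adjusted p = 0.021) and LEMD3 with -0.75 (adjusted p = 0.0453). RGMB gave -1.96 (adjusted p = 2.49e-05), CRIM1 -1.40 (adjusted p = 0.0111), TGFBR3 -0.95 (adjusted p = 0.00358), HEY1 -0.95 (adjusted p = 0.000918), TGIF1 -0.83 (adjusted p = 0.00894) and BMPER -0.77 (adjusted p = 0.0182). LYL1 gave 1.01 (adjusted p = 0.0039), SMAD1 0.86 (adjusted p = 0.0482) and JUNB 0.64 (adjusted p = 0.0302). SMAD1 was no longer called when any of 11 arrays was left out, that is, each except MMS1 miR-16 sponge replicate 1, and with the replicate block (adjusted p = 0.0835). JUNB was no longer called without any of 9 arrays, each except MMS1 control sponge replicate 2, MMS1 miR-16 sponge replicate 1 and RPMI8226 miR-16 sponge replicate 3. BMPER lost it without MMS1 control sponge replicate 1 or 3 or RPMI8226 control sponge replicate 2, and with trended robust variances. RGMB gave 0.175 and TGIF1 0.0503 as adjusted p with the mean over probe sets.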

How the results depend on the processing

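Of the 10 genes' called values, 0 changed sign under any alternative. Brighter probe sets, the replicate block, trended robust variances and each line alone keep the log2 differences as they are. A sign could thus change only under the other alternatives. In MMS1, 6 of the 10 genes were called, 5 to 6 without single arrays, 7 among brighter probe sets and 4 with each line alone (without ID1 and ID3). All genes called in MMS1 numbered 2455 in the main fit, 3254 among brighter probe sets and 1554 with the line alone. In RPMI8226 the count was 0, also without single arrays, but 2 (ID1 and SOSTDC1, both lower) among brighter probe sets and with trended robust variances. All genes called there rose as well, from 43 to 570 among brighter probe sets and 794 with trended robust variances. For the difference the count was 2 without any single array and 3 (with SMAD7) among brighter probe sets and with the mean over probe sets. All genes called for it numbered 1167, 2026 among brighter probe sets and 1441 with the mean over probe sets. For the control arrays the count was 4, with 3 to 4 without single arrays and 5 (with ID4) with the mean over probe sets. The x_at probe set of ID4 gave -1.68 there, RPMI8226 minus MMS1. The other 4 ID4 probe sets gave 0.03 to 0.16, none of them called. All genes called numbered 2041, and 2364 with the mean over probe sets.

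Over the 100 network genes in MMS1, 8 were called higher, 5 to 9 without single arrays (5 without MMS1 control sponge replicate 1 or 3) and 13 with quantile normalization. As lower 7 were called, 6 to 10 without single arrays, 11 with trended robust variances and 12 with the mean over probe sets. In RPMI8226, 0 were higher without any single array and 2 with trended robust variances. As lower, 0 to 2 were called without single arrays (2 without MMS1 miR-16 sponge replicate 1), 5 among brighter probe sets, 6 with trended robust variances and 1 with the mean over probe sets. For the difference, 4 were higher (1 to 5 without single arrays, with 1 or 2 without any array except MMS1 control sponge replicate 2, MMS1 miR-16 sponge replicate 1 and RPMI8226 miR-16 sponge replicate 3, 8 among brighter probe sets, 7 with trended robust variances) and 7 lower (5 to 7, and 12 with trended robust variances). For the control arrays, 14 were higher in RPMI8226 (10 to 15) and 6 lower (0 to 7, with 0 without MMS1 control sponge replicate 1, 1 without MMS1 or RPMI8226 control sponge replicate 3, and 2 without RPMI8226 control sponge replicate 2).

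Over all genes, MMS1 calls numbered 2455 (1613 to 2465 without single arrays with 1613 and 1625 without MMS1 control sponge replicate 3 and 1, and 1554 with the line alone). RPMI8226 calls numbered 43 (12 to 274, with 274 without MMS1 miR-16 sponge replicate 1 and 12 to 18 without any array except that one and MMS1 miR-16 sponge replicates 2 and 3), then 570 among brighter probe sets, 794 with trended robust variances, 5 with the line alone, 87 with the mean over probe sets and 16 with the replicate block. The difference gave 1167 (784 to 1177), 2026 among brighter probe sets and 2120 with trended robust variances, and the control arrays 2041 (1292 to 2443, with 1292 to 1319 without MMS1 control sponge replicate 1 or RPMI8226 control sponge replicate 2 or 3). The causes were not tested. Residuals of same-numbered arrays of different groups correlated at -0.07 to 0.06, so the numbers were not taken as pairs. With the replicate block the same 6, 0, 2 and 4 of the 10 genes were called in MMS1, RPMI8226, the difference and the control arrays. It ended the calls of PPM1A and TGIF1 in MMS1 (adjusted p = 0.0565 and 0.0719), and so did each line alone (0.0629 and 0.121).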
